A study of Homo sapiens with 15 samples.

Results

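Tetraspanins are small membrane proteins that cross the membrane repeatedly and gather integrins, immunoglobulin superfamily proteins, proteases and one another into membrane microdomains. The genes were chosen by name from the array's probe annotation: every symbol made of TSPAN and a digit, together with CD9, CD37, CD53, CD63, CD81, CD82, CD151, UPK1A, UPK1B, PRPH2 and ROM1, with antisense transcripts left out. This gave 33 of the 18334 genes measured, read by 48 probes, of which 22 genes had 1 probe and 11 had more. The cells were K562, a human chronic myeloid leukaemia line with erythroid and megakaryocytic potential, labelled DNSZ K562. Treated cells received 1 mM valproic acid (VPA), an anticonvulsant branched fatty acid that inhibits histone deacetylases, and the control cells received no agent and were collected at the same time as their treated partners, after 2, 6, 10, 48 or 72 h. Treated and untreated RNA were hybridised together on 2-colour arrays, 3 arrays at each time and 15 in all. The 3 replicates came from separate thawings of the line, all of the 1 cell line, and the dyes were exchanged in replicate 3.

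Every value below is a log2 ratio of treated over untreated RNA, so that 1 stands for a 2-fold higher and -1 for a 2-fold lower amount of transcript in treated cells. The authors' labels name no base for the logarithm. Base 2 was assumed, which matters for the folds given here but not for the tests. A gene's ratio on an array was the mean of its probes, and its fitted ratio at a time came from a linear model (limma) with a term for the dye, so it can differ slightly from the plain mean of the 3 arrays. The error after ± is the fitted standard error. A gene was called, and is said to have risen or fallen, when its Benjamini-Hochberg adjusted p across the 18334 genes was under 0.05. The table holds ratios only, so no transcript level could be read, and the identity of the line could not be checked against levels of its markers. Array medians lay between -0.01 and 0.02 and the SD of ratios within an array between 0.211 and 0.432. The replicate with exchanged dyes was correlated with the mean of the others over all genes at r = 0.54 at 2 h and 0.67 to 0.83 later. Over all probes, those without a gene included, r was -0.0895 at 2 h and 0.305 to 0.574 later, so the orientation of replicate 3 is in doubt at 2 h. Over the 33 tetraspanin genes, as a description, r was 0.190 at 2 h and 0.872 to 0.954 from 6 h on, so directions at 2 h are the least certain.

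Members of the family sort by place and partner. CD9, CD81, CD82 and CD151 sit largely at the cell surface with integrins, CD63 cycles through late endosomes and lysosomes, and CD9, CD63 and CD81 are the common markers of exosomes. CD37 and CD53 are leukocyte proteins, and TSPAN5, TSPAN10, TSPAN14, TSPAN15, TSPAN17 and TSPAN33 form the TspanC8 subgroup, which escorts the protease ADAM10 out of the endoplasmic reticulum. PRPH2 and ROM1 shape the rims of photoreceptor discs, and UPK1A and UPK1B belong to the plaques of the bladder lining.

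Promoter sequences are given for the gene with the highest ratio of the family (TSPAN5), for a gene whose response came late (CD82) and for the gene with the lowest ratio (ROM1), because Sp1-type factors, which bind GC boxes, are known to recruit histone deacetylases. The windows are from RefSeq on GRCh38.p14 and run from 250 bases before to 50 bases from the annotated start, on the strand of the gene. Capitals mark GC boxes, GGGCGG on either strand, the core those factors bind. The TSPAN5 window is chr4:98658562-98658861 on the minus strand, that of CD82 is chr11:44565413-44565712 on the plus strand, and that of ROM1 is chr11:62613007-62613306 on the plus strand.
TSPAN5: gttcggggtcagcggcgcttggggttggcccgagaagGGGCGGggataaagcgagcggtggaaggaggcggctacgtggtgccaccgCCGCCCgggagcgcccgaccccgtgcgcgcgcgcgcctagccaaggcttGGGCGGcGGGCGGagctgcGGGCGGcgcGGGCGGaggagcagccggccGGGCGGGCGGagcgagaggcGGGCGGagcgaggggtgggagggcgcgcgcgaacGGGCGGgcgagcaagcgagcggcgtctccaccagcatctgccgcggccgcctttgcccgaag
CD82: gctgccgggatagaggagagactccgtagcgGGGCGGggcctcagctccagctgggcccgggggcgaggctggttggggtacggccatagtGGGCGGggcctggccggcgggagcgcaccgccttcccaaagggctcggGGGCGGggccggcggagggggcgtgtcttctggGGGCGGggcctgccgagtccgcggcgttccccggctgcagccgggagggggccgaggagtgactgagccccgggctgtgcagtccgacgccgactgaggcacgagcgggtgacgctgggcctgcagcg
ROM1: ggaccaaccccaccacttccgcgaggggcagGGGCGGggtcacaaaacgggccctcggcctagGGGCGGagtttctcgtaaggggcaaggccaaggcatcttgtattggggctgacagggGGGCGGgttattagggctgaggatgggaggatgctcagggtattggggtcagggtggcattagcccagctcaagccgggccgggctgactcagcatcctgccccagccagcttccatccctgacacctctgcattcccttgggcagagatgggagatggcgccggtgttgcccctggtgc

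TSPAN5 held 10 GC boxes, counting overlapping matches, 50 CpG dinucleotides and 78.3% G and C in this window. CD82 held 4 GC boxes, 33 CpG dinucleotides and 76.7% G and C. ROM1, the gene that fell, also held 3 GC boxes, with 12 CpG dinucleotides, 64.7% G and C, 2 CCAAT boxes and 1 AP-1 motif (TGANTCA). So the GC box was present in the printed windows of genes that moved in opposite directions. CD53, which also responded late, held 0 and 1 GC boxes in its 2 windows. TSPAN2, which was not called at any time, held 5 in its window. RefSeq windows were matched for 25 of the 33 genes, 45 windows in all because 17 genes had 1 window and the others more. A GC box occurred in 60.0% of these windows against 45.0% of the 35116 windows of all genes. TATAAA occurred in 2.22% against 11.5%, CCAAT in 24.4% against 34.6%, TGANTCA in 6.67% against 7.71%, AGATAA in 4.44% against 10.3% and CACGTG in 6.67% against 7.26%, each on both strands. These shares count windows and not genes, and CD63 gave 8 of the 45 windows, TSPAN4 5 and CD9 4, some of them overlapping. By gene, 16 of the 25 held a GC box in at least 1 window, and this share was not counted for all genes. The median number of CpG dinucleotides was 12 in the windows of tetraspanin genes and 14 in all windows. A match describes the letters only and marks no site of binding.

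VPA-treated cells carried more transcript of a large share of the tetraspanin genes than untreated cells, from 6 h on. No tetraspanin gene was called at 2 h, when 4.82% of all genes were higher and 1.53% were lower. At 6 h 11 tetraspanins (33.3%) were higher against 19% of all genes, and 2 (6.06%) were lower against 9.66%. At 10 h 12 (36.4%) were higher against 18.1%, and 4 (12.1%) were lower against 11.6%. The largest counts came at 48 h, with 18 (54.5%) higher against 23.3% of all genes and 5 (15.2%) lower against 14.6%. At 72 h 15 (45.5%) were higher against 22.1%, and 1 (3.03%) was lower against 13.6%. The median tetraspanin ratio was -0.00, 0.04, 0.10, 0.12 and 0.12 at 2, 6, 10, 48 and 72 h, while that of all genes stayed between 0.00 and 0.01.

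**Figure D1:**
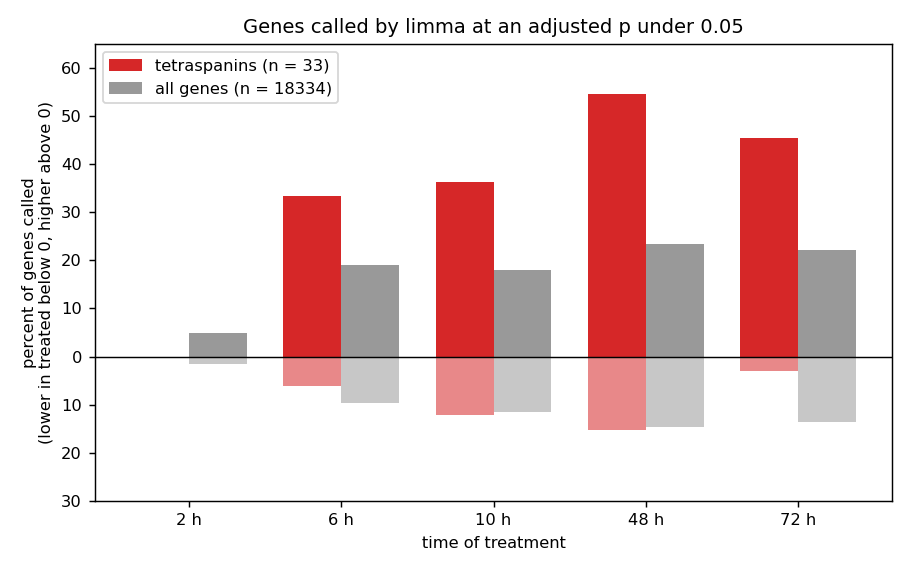
Percentage of genes called higher or lower in treated than untreated cells at each time (h), for the 33 tetraspanin genes and for all 18334 genes. From 6 h on the tetraspanin share called higher (33.3% to 54.5%) lies above that of all genes (18.1% to 23.3%), while at 10 h and 48 h the shares called lower lie close together.

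Over the course, 24 of the 33 genes were called at 1 or more times, against 55.4% of all genes. Of these, 18 were called higher and 6 lower, and no gene was called in both directions. For all genes this split over the course was not counted, so these counts stand without a share to set them against. CD9, CD81, TSPAN4, TSPAN5, TSPAN6, TSPAN12, TSPAN15, TSPAN18 and TSPAN31, 9 genes, were higher at 6, 10, 48 and 72 h, a pattern that 10.1% of all genes shared. A called ratio of at least 2-fold higher was reached by 2 tetraspanins at 6 h (0.873% of all genes), 2 at 10 h (1.28%), 4 at 48 h (2.71%) and 5 at 72 h (2.25%). These 5 were TSPAN5, CD9, CD53, TSPAN6 and CD82. No tetraspanin was 2-fold lower at a time when it was called.

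**Figure D2:**
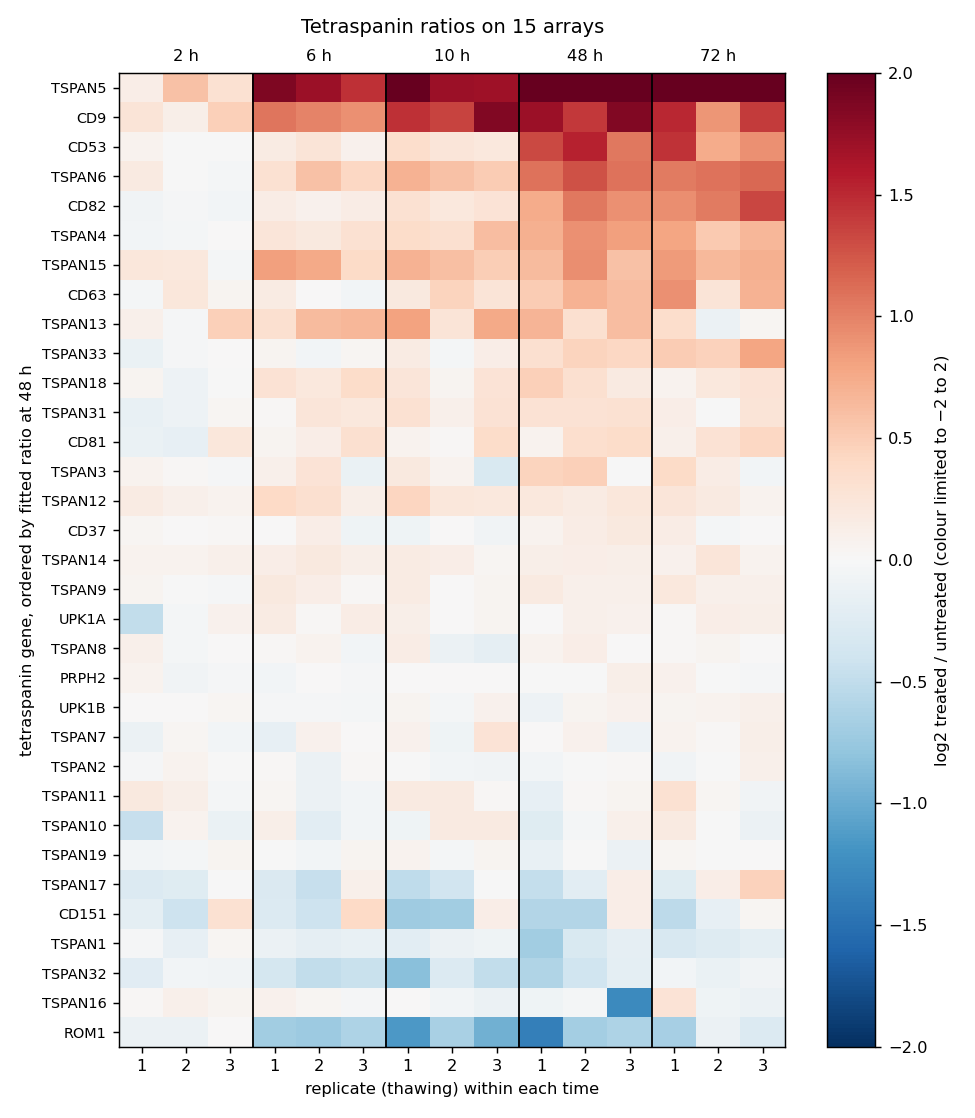
Log2 ratio of treated over untreated RNA for each of the 33 tetraspanin genes on each of the 15 arrays, grouped by time (h), with replicates 1 to 3 side by side. TSPAN5 and CD9 are high on every array from 6 h on, ROM1 is low on every array from 6 h to 48 h, TSPAN16 is low on a single array of 48 h, and the genes of the middle rows stay near 0. The colour scale is limited to -2 and 2.

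TSPAN5, of the ADAM10-escorting subgroup, had the highest ratio of the family at every time. Its arrays read 0.13, 0.59 and 0.30 after 2 h, 1.87, 1.72 and 1.47 after 6 h and 2.14, 1.71 and 1.70 after 10 h. They read 2.57, 2.66 and 2.72 after 48 h and 2.77, 2.68 and 2.84 after 72 h. All arrays were positive, and from 6 h on every array lay above all 3 arrays of 2 h. The fitted ratio was 0.33 ± 0.10 at 2 h, not called at an adjusted p of 0.0753, though it was called without the first 10 h array (adjusted p = 0.0380). It was called at 6 h (1.67) and at each later time, up to 2.75 at 72 h. The last is a 6.71-fold higher amount in treated cells (adjusted p = 1.56e-09). Both TSPAN5 probes moved alike, at 2.80 and 2.47 at 48 h.

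CD9, a surface tetraspanin of platelets and a partner of integrins, also rose from 6 h and had its highest fitted ratio at 48 h. Its arrays read 0.25, 0.12 and 0.47 after 2 h, 1.08, 0.99 and 0.92 after 6 h, 1.46, 1.35 and 1.85 after 10 h, 1.71, 1.42 and 1.86 after 48 h and 1.51, 0.88 and 1.40 after 72 h. From 6 h on all 12 arrays were positive, without overlap with the arrays of 2 h. Its fitted ratio was 0.32 ± 0.11 at 2 h, not called at an adjusted p of 0.111, and 1.70 at 48 h, which is 3.24-fold (adjusted p = 1.06e-07). At 72 h it stood at 1.30. The ratio at 2 h was called when the first or second 72 h array was left out (adjusted p = 0.0384 and 0.0497).

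CD53, a pan-leukocyte tetraspanin, responded late. Its arrays lay between -0.00 and 0.35 at 2 to 10 h, then read 1.32, 1.54 and 1.05 after 48 h and 1.45, 0.74 and 0.91 after 72 h. The arrays of days and hours did not overlap. For CD53 the fit gave 1.28 ± 0.10 at 48 h, a 2.42-fold rise (adjusted p = 7.48e-07), and 1.01 at 72 h. CD53 was not called at 6 h (0.14) or 10 h (0.24, adjusted p = 0.0971), although 10 h was called when the first or second 72 h array was left out (adjusted p = 0.0159 and 0.0282).

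CD82, known as a suppressor of metastasis, followed a similar late course. Its arrays read 0.31, 0.22 and 0.27 after 10 h, 0.75, 1.06 and 0.91 after 48 h and 0.93, 1.04 and 1.34 after 72 h, against -0.07 to 0.15 at 2 h and 6 h. Each step from 6 h to 10 h to 48 h was free of overlap. The fitted ratio reached 1.11 ± 0.07 at 72 h, a 2.17-fold rise (adjusted p = 7.66e-08). The smaller rise at 10 h (0.28, adjusted p = 0.00647) was lost without the first 10 h array, at an adjusted p of 0.0540.

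TSPAN6, which binds the antiviral adaptor MAVS, was higher at every time from 6 h, with the larger ratios at days. Its arrays read 0.31, 0.58 and 0.41 after 6 h, 0.69, 0.58 and 0.50 after 10 h, 1.08, 1.27 and 1.09 after 48 h and 1.04, 1.09 and 1.15 after 72 h. The arrays of days all lay above those of hours. For TSPAN6 the fit gave 1.14 ± 0.06 at 48 h, a 2.20-fold rise (adjusted p = 2.72e-08), and its probes read 1.51 and 0.76 there.

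TSPAN4, a marker of migrasomes, the vesicles left behind by migrating cells, also rose more at days than at hours. Its arrays read 0.24, 0.19 and 0.31 after 6 h, 0.36, 0.33 and 0.62 after 10 h, 0.72, 0.92 and 0.82 after 48 h and 0.79, 0.53 and 0.67 after 72 h. The 3 arrays of 2 h lay between -0.05 and 0.01, below all of these. For TSPAN4 the fit gave 0.83 ± 0.06 at 48 h (1.78-fold, adjusted p = 2.5e-07). The call at 6 h was lost when replicate 3 was left out (0.22, adjusted p = 0.0656).

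CD63, the lysosomal tetraspanin and the cell-surface receptor of TIMP1, was called at 10, 48 and 72 h. Its arrays read 0.19, 0.44 and 0.26 after 10 h, 0.51, 0.69 and 0.62 after 48 h and 0.91, 0.26 and 0.69 after 72 h. The arrays of 10 h and 72 h overlapped, those of 10 h and 48 h did not. For CD63 the fit gave 0.60 ± 0.10 at 48 h (1.52-fold, adjusted p = 0.000352) and 0.61 at 72 h. The call at 10 h (0.29, adjusted p = 0.0409) was lost with the thawing as a block (adjusted p = 0.0522) and without any of the 3 arrays of that time (adjusted p = 0.0626, 0.203 and 0.156).

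**Figure D3:**
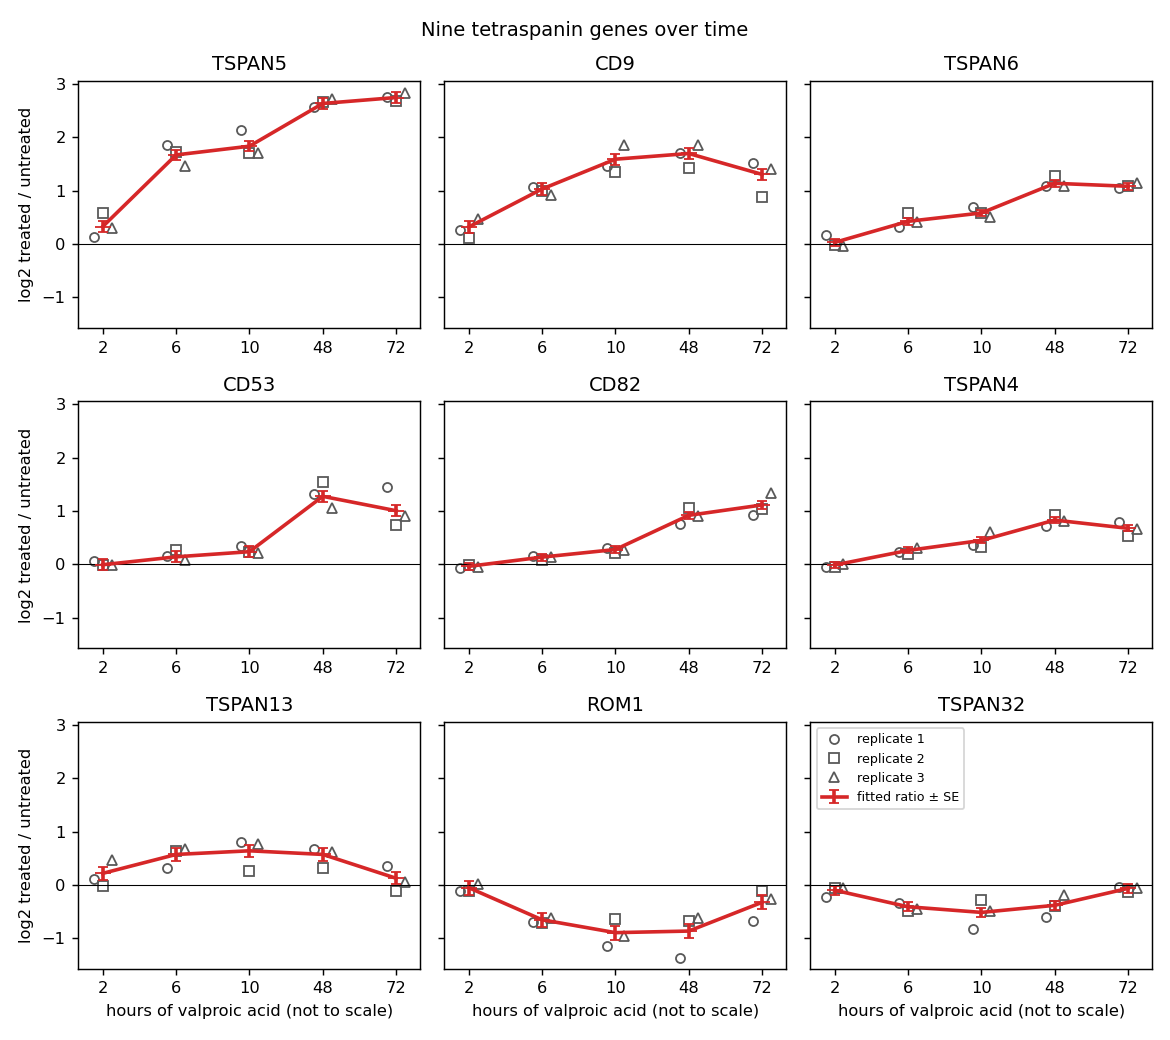
Log2 ratio of treated over untreated RNA against time (h, not to scale) for 9 tetraspanin genes, with points for the 3 replicates at each time and a line through the fitted ratios with bars of ± 1 fitted SE. TSPAN5 climbs to 2.75 at 72 h, CD53 and CD82 stay low until 48 h, and ROM1 and TSPAN32 are lowest at 10 h.

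Among the 6 TspanC8 genes, 3 were higher at 6 h (19% of all genes), 2 at 10 h (18.1%), 4 at 48 h (23.3%) and 4 at 72 h (22.1%), and 1 was lower at 10 h (11.6% of all genes). ADAM10, the protease they escort, was itself higher at 6 h (0.27), 10 h (0.30), 48 h (0.44 ± 0.08, adjusted p = 0.00068) and 72 h (0.36). TSPAN15 was next to TSPAN5 in size. Its arrays read 0.23, 0.21 and -0.03 after 2 h, 0.83, 0.76 and 0.39 after 6 h, 0.69, 0.60 and 0.49 after 10 h, 0.63, 0.93 and 0.58 after 48 h and 0.85, 0.65 and 0.70 after 72 h. From 6 h on its arrays overlapped between times and all lay above 2 h. The fitted ratio was 0.62 ± 0.06 at 6 h and 0.70 at 72 h (1.62-fold, adjusted p = 2.95e-06).

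TSPAN33, first described in erythroid progenitors of mice, was called at days only. Its arrays lay between -0.13 and 0.17 up to 10 h and read 0.32, 0.45 and 0.42 after 48 h and 0.50, 0.46 and 0.78 after 72 h. Every array of 72 h lay above every array of 48 h, but only by a margin of 0.46 against 0.45. For TSPAN33 the fit gave 0.60 ± 0.05 at 72 h (1.52-fold, adjusted p = 2.71e-06). Its 3 probes differed in size, at 0.99, 0.17 and 0.08 after 48 h, so the gene mean depends on which probe is read.

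TSPAN14 was higher by small amounts at 6 h (0.14), 48 h (0.12) and 72 h (0.12). Its 5 probes differed in size and in sign, from 0.58 to -0.18 at 72 h, where only those at 0.58 and 0.35 were called. Its calls were lost without the second or the third 6 h array (adjusted p = 0.102 and 0.0936), any 48 h array (0.0647, 0.103 and 0.224) and the second or the third 72 h array (0.230 and 0.0707). The 10 h ratio (0.10) was called without the second 72 h array (adjusted p = 0.0399). With the median of its probes in place of the mean it was not called at 48 h (0.09, adjusted p = 0.168) or 72 h (0.03, adjusted p = 0.751). TSPAN17 was lower at 10 h (-0.23, adjusted p = 0.0314). At 72 h its ratio was 0.19 (adjusted p = 0.0626), which was called with the thawing as a block (adjusted p = 0.0479) and without the first 72 h array (0.30, adjusted p = 0.00734). At 10 h the call of TSPAN17 was lost without any of the 3 arrays of that time, at adjusted p values of 0.159, 0.0512 and 0.151. It was also lost without the dye term (-0.30, adjusted p = 0.165). TSPAN10, a pigment-cell tetraspanin, was not called at any time, with fitted ratios from -0.17 to 0.10.

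**Figure D4:**
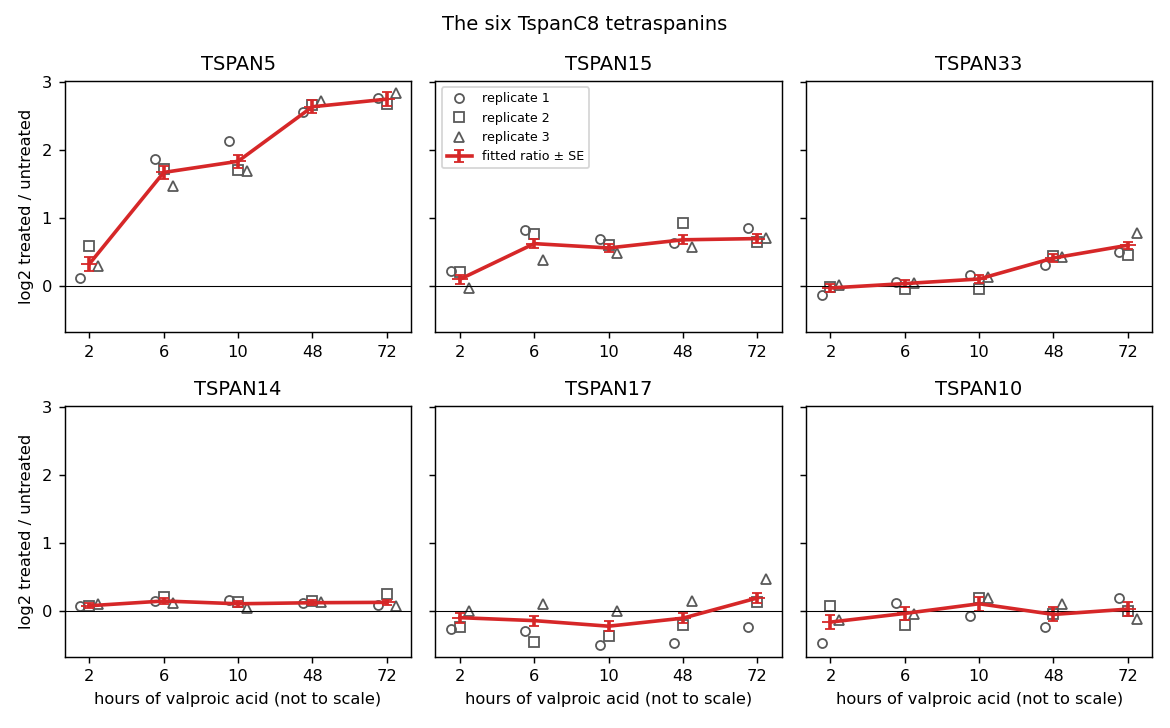
Log2 ratio of treated over untreated RNA for the 6 TspanC8 genes at each time (h, not to scale), with points for the 3 replicates and a line through the fitted ratios with bars of ± 1 fitted SE. TSPAN5 stands far above the rest, TSPAN15 is level from 6 h, TSPAN33 appears at 48 h, and TSPAN10 stays near 0.

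CD81, an entry receptor of hepatitis C virus, was higher at every time from 6 h, by less than the genes above. Its arrays read 0.06, 0.14 and 0.33 after 6 h, 0.07, 0.02 and 0.36 after 10 h, 0.07, 0.33 and 0.37 after 48 h and 0.11, 0.30 and 0.42 after 72 h. Replicate 3, with exchanged dyes, was the highest at each of these times. For CD81 the fit gave 0.32 ± 0.05 at 72 h (1.25-fold, adjusted p = 0.000481). Leaving out the second 6 h array (adjusted p = 0.0666), or the first or the third 10 h array (0.0675 and 0.146), ended the call of that time. Leaving out replicate 3 also removes the dye term. CD81 was then not called at 6 h (0.10, adjusted p = 0.386), 10 h (0.05, adjusted p = 0.722), 48 h (0.20, adjusted p = 0.0709) or 72 h (0.20, adjusted p = 0.0863). Without the dye term it was not called at 6 h (0.17, adjusted p = 0.216) or 10 h (0.15, adjusted p = 0.293).

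TSPAN18, which in endothelial cells regulates the calcium channel Orai1, was higher from 6 h to 72 h. Its arrays read 0.29, 0.21 and 0.36 after 6 h, 0.24, 0.06 and 0.27 after 10 h, 0.48, 0.32 and 0.18 after 48 h and 0.07, 0.21 and 0.27 after 72 h. All 12 were positive, and the times overlapped. For TSPAN18 the fit gave 0.33 ± 0.06 at 48 h (1.26-fold, adjusted p = 0.00109), where its probes read 0.60 and 0.06. The calls at 10 h and 72 h were lost without the third array of the time (adjusted p = 0.269 and 0.263), and the call at 6 h likewise (adjusted p = 0.0581). Leaving out the first 10 h array (adjusted p = 0.167) or the second 72 h array (adjusted p = 0.120) ended those calls as well.

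TSPAN13 rose early and was no longer called at 72 h. Its arrays read 0.32, 0.63 and 0.67 after 6 h, 0.81, 0.26 and 0.76 after 10 h, 0.68, 0.32 and 0.62 after 48 h and 0.35, -0.12 and 0.05 after 72 h. The second array was the lowest at 10, 48 and 72 h, and the arrays of 48 h and 72 h overlapped. For TSPAN13 the fit gave 0.64 ± 0.12 at 10 h (1.56-fold, adjusted p = 0.00112) and 0.12 at 72 h (adjusted p = 0.477). The call at 6 h was lost without replicate 3 (0.47, adjusted p = 0.0619).

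Smaller rises were called in the other members. TSPAN12, a co-receptor of the norrin receptor FZD4, was higher at 6 h (0.26), 10 h (0.27), 48 h (0.19) and 72 h (0.14, adjusted p = 0.0341). Its call at 48 h was lost without the third array (0.13, adjusted p = 0.158), and that at 72 h without any of the 3 arrays (adjusted p = 0.146, 0.0751 and 0.102). Only 1 of its probes was called at 6, 48 and 72 h, at 0.38, 0.27 and 0.21, while the other read 0.14, 0.10 and 0.08. TSPAN31, which lies beside CDK4 and is amplified with it in sarcomas, was higher at 6 h (0.18), 10 h (0.25), 48 h (0.31) and 72 h (0.14, adjusted p = 0.0492). The arrays of TSPAN31 at 72 h read 0.13, -0.01 and 0.26, and its call there was lost in 17 of 25 other fits. Among these were the thawing as a block (adjusted p = 0.0603) and the fits without the first 72 h array (0.185) or the third (0.368). The call of TSPAN31 at 6 h was lost without the second array (adjusted p = 0.202) or the third (adjusted p = 0.0873).

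TSPAN9, a tetraspanin of platelets, was higher at 48 h (0.12, adjusted p = 0.0385) and 72 h (0.13, adjusted p = 0.0264). Fitted 1 by 1, its probes read 0.26 and -0.002 at 72 h, and neither was called at 48 h (adjusted p = 0.108 and 0.105). Its ratio at 6 h (0.11) was called with the thawing as a block (adjusted p = 0.0303) and with array weights (0.0459), and was not called without them (0.0600). TSPAN3 was higher at 48 h alone (0.25, adjusted p = 0.00682), where its arrays read 0.45, 0.47 and -0.00. The call was lost without the second array (adjusted p = 0.0513) or without the dye term (adjusted p = 0.0545). CD37, a lymphocyte tetraspanin, was called at 48 h alone (0.13, adjusted p = 0.0434) and lost with the thawing as a block (adjusted p = 0.0536). The rises of TSPAN9 and CD37 were each lost on leaving out single arrays, for TSPAN9 at 48 h any of the 3 arrays of that time (adjusted p = 0.150, 0.0611 and 0.190) and at 72 h the first or the third (0.138 and 0.145).

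Fewer tetraspanins had less transcript in treated cells. ROM1, the photoreceptor disc protein, had the lowest ratios. Its arrays read -0.70, -0.72 and -0.62 after 6 h, -1.15, -0.64 and -0.96 after 10 h, -1.36, -0.68 and -0.62 after 48 h and -0.67, -0.11 and -0.27 after 72 h, against -0.12, -0.11 and 0.01 after 2 h. Arrays of 6, 10 and 48 h all lay below those of 2 h, while those of 72 h overlapped them. For ROM1 the fit gave -0.90 ± 0.13 at 10 h (adjusted p = 0.000219), an amount in treated cells 0.537 times that in untreated cells. At 72 h it was -0.33 and not called (adjusted p = 0.0700), but it was called with the thawing as a block (adjusted p = 0.0212), and without the first 48 h array (0.0199) or the second 72 h array (0.0249).

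TSPAN32, a tetraspanin of blood cells that in mice binds the platelet integrin of fibrinogen, was lower at 6, 10 and 48 h. Its arrays read -0.35, -0.49 and -0.44 after 6 h, -0.83, -0.28 and -0.49 after 10 h, -0.60, -0.40 and -0.20 after 48 h and -0.05, -0.13 and -0.07 after 72 h. The arrays of 72 h all lay nearer 0 than those of the 3 times before. For TSPAN32 the fit gave -0.52 ± 0.09 at 10 h (0.699 times the untreated amount, adjusted p = 0.000626) and -0.07 at 72 h. Without the third 6 h array the call at 6 h was lost (-0.36, adjusted p = 0.0520).

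TSPAN1, best known from epithelial cells, was lower at 48 h and 72 h. Its arrays read -0.69, -0.30 and -0.17 after 48 h and -0.33, -0.25 and -0.19 after 72 h. All 6 arrays were negative, and the times overlapped each other and 10 h (-0.21, -0.12 and -0.09). For TSPAN1 the fit gave -0.37 ± 0.07 at 48 h (0.776 times, adjusted p = 0.00087). The call at 72 h (-0.23, adjusted p = 0.0161) was lost without the first array (adjusted p = 0.0678) or the third (0.115). Leaving out the first 48 h array brought calls at 6 h (-0.14, adjusted p = 0.0261) and 10 h (-0.13, adjusted p = 0.0386).

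The calls of CD151 and TSPAN16 rest on how the replicates are combined. CD151, the partner of the laminin-binding integrins, was called lower at 10 h (-0.32 ± 0.08, adjusted p = 0.00713) and 48 h (-0.23, adjusted p = 0.0288). Its arrays read -0.72, -0.69 and 0.13 after 10 h and -0.58, -0.59 and 0.14 after 48 h. Replicate 3, with exchanged dyes, was positive at all 5 times and replicates 1 and 2 were negative at all of them, so the sign of the ratio went with the dye. Dye and the third thawing cannot be told apart here. The call at 10 h was lost without a dye term (-0.43, adjusted p = 0.165) and without the first 10 h array (adjusted p = 0.0567), and that at 48 h without any of the 3 arrays of that time (adjusted p = 0.105, 0.111 and 0.0862). At 72 h CD151 was not called (-0.11), but it was without the second array (-0.24, adjusted p = 0.0117).

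TSPAN16 was called at 48 h alone (-0.52 ± 0.15, adjusted p = 0.0125). Its 48 h arrays read -0.08, -0.04 and -1.27, and on every array of the other times it lay between -0.12 and 0.27. A single array thus carried the call, which was -0.11 without it (adjusted p = 0.336).

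The remaining 9 genes were not called at any time. They were PRPH2, UPK1A, UPK1B, TSPAN2, TSPAN7, TSPAN8, TSPAN10, TSPAN11 and TSPAN19, and their fitted ratios lay between -0.17 and 0.13. The 95% intervals of these ratios reached from -0.39 to 0.32, so a change of 2-fold lay outside them all. PRPH2, the partner of ROM1 in photoreceptors, read -0.02 at 6 h, 0.01 at 10 h and 0.03 at 48 h, the times when ROM1 fell. TSPAN19 was called at 48 h without the second array of that time (-0.14, adjusted p = 0.0381), and TSPAN8 at 10 h without the first (-0.14, adjusted p = 0.0438). With ratios only, whether these transcripts were present in K562 cells could not be read.

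The response of 13 genes differed between hours and days, tested as the mean ratio at 48 h and 72 h minus the mean at 2, 6 and 10 h. The ratio was higher at days in 12 tetraspanins (36.4%), against 14.9% of all genes, and lower in 1 (3.03%), against 11%. The largest differences were in TSPAN5 (1.41 ± 0.09, adjusted p = 2.95e-07), CD53 (1.02 ± 0.09, adjusted p = 4.99e-06), CD82 (0.89 ± 0.06) and TSPAN6 (0.76 ± 0.05). TSPAN4 (0.52), CD9 (0.52), CD63 (0.47), TSPAN33 (0.47), TSPAN15 (0.26), TSPAN3 (0.20), TSPAN17 (0.20) and CD81 (0.17) followed, and TSPAN1 (-0.21) went the other way. The mean at hours takes in 2 h, when no tetraspanin was called, so a positive difference need not mean a rise after 10 h. CD9 read 1.59 at 10 h against 1.70 at 48 h and 1.30 at 72 h. TSPAN15 read 0.62 at 6 h and 0.56 at 10 h against 0.68 at 48 h and 0.70 at 72 h. TSPAN17 (adjusted p = 0.0423) had ratios of -0.10, -0.15 and -0.23 at hours and -0.11 and 0.19 at days, so its difference is between a lower and a nearly even ratio. In a test over all 5 times together (4 contrasts of each later time with 2 h), 12 of 33 tetraspanins changed over time, against 23.3% of all genes.

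**Figure D5:**
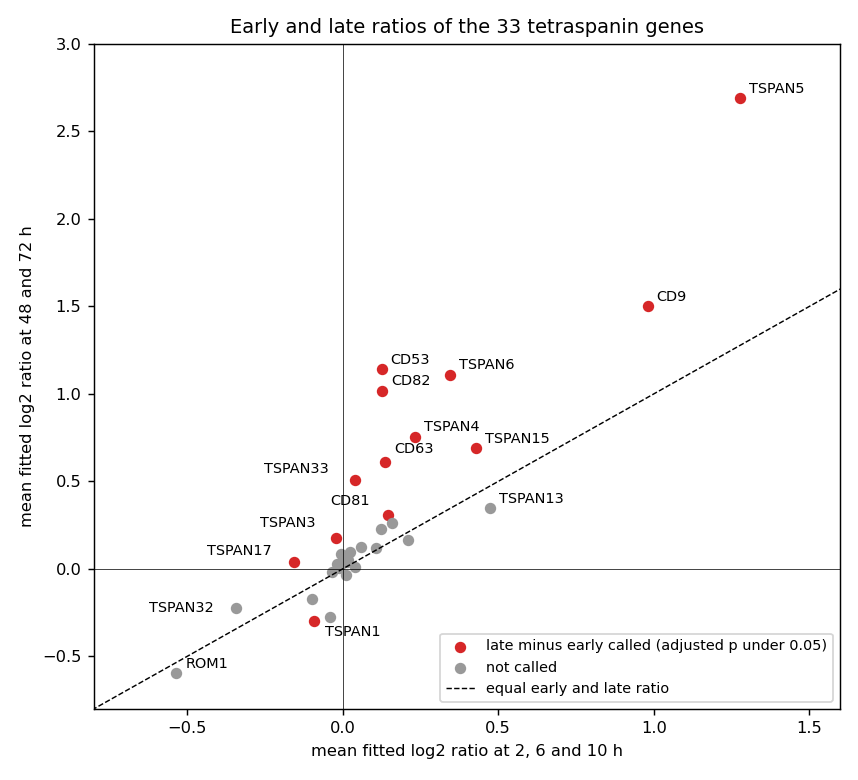
Fitted log2 ratio averaged over 48 h and 72 h (vertical) against that averaged over 2, 6 and 10 h (horizontal) for the 33 tetraspanin genes, with the line of equal ratios. CD53 and CD82 lie near 0 at hours and well above the line, TSPAN5 lies far out on both axes, and ROM1 lies low on both.

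The difference between 72 h and 48 h was examined after these values were seen. The limma fit called 0 of 18334 genes, with 2377 at an unadjusted p under 0.05 and a lowest adjusted p of 0.0680. Of the tetraspanins, 8 had an unadjusted p under 0.05. The 72 h ratio was nearer 0 than the 48 h ratio by 0.54 ± 0.18 in ROM1 and 0.32 ± 0.12 in TSPAN32, which had been low, and the difference was -0.45 ± 0.16 in TSPAN13 and -0.39 ± 0.15 in CD9, which had been high. With adjusted p values of 0.270, 0.309, 0.294 and 0.304, none of these differences passed. The same contrast was 0.19 ± 0.08 in TSPAN33, 0.30 ± 0.10 in TSPAN17, 0.49 ± 0.20 in TSPAN16 and -0.17 ± 0.07 in TSPAN31.

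Several tetraspanin genes lie side by side on chromosome 11 (RefSeq order). No protein-coding gene separates TSPAN32 from CD81, and TSPAN32 fell at 48 h (-0.38) while CD81 rose (0.30). CD151 and TSPAN4 are separated by POLR2L, a subunit shared by the RNA polymerases, which was not called at 48 h (0.05). There CD151 read -0.23 and TSPAN4 rose by 0.83. CD82 and TSPAN18 also have no protein-coding gene between them, and both rose (0.92 and 0.33).

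Of 33 measured genes of proteins that tetraspanins gather, 12 (36.4%) were higher at 48 h against 23.3% of all genes and 3 (9.09%) lower against 14.6%. At 72 h 12 were higher against 22.1% and 4 (12.1%) lower against 13.6%, and the medians were 0.07 and 0.02. TIMP1, a metalloproteinase inhibitor that binds CD63, rose to 1.38 ± 0.08 at 72 h. CD44, the hyaluronan receptor, rose to 1.03 ± 0.06 at 48 h. FZD4, which signals with TSPAN12, was higher at 2 h already (0.72 ± 0.14, adjusted p = 0.0061) and read 0.48 at 72 h. EPCAM, an adhesion protein that associates with CD9, fell to -1.05 ± 0.07 at 72 h. Among 25 genes of exosome and lysosome sorting, 13 (52%) were higher at 48 h against 23.3% of all genes and 2 (8%) lower against 14.6%, with a median of 0.13. LAMP3, a lysosomal membrane protein, rose to 1.30 ± 0.18 at 48 h, and so did syndecan-2 (SDC2, 0.72) and its adaptor syntenin (SDCBP, 0.57), which links syndecans to CD63 in exosome formation. RAB27A, a GTPase of vesicle docking, fell to -0.83 ± 0.09 at 72 h.

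Lineage markers were read at the same times. At 48 h, 4 of 15 monocyte and granulocyte markers (26.7%) were higher and 1 (6.67%) was lower, shares near or below those of all genes (23.3% and 14.6%), with ratios from -0.14 to 1.69. Lysozyme (LYZ) led, at 1.69 ± 0.08 at 48 h and 1.76 at 72 h, after 0.15 at 10 h, and ITGAM read 0.93 at 48 h, while CD14 (-0.04) and MPO (-0.07) were not called. LYZ and ITGAM were called at 48 h and 72 h and CEBPA from 6 h on (0.67 at 10 h). ITGAX was called at 72 h alone (0.37) and PRTN3 at 10, 48 and 72 h (0.17 at 48 h). CSF3R was lower at 48 h (-0.14). At 72 h 5 of these 15 markers (33.3%) were higher against 22.1% of all genes, and 0 were lower against 13.6%. Of 16 erythroid markers 6 (37.5%) were lower against 14.6% of all genes and 3 (18.8%) higher against 23.3% at 48 h. Their ratios ran from -1.07 (HBB) to 0.59 (RHAG), and KLF1 was lower at all 5 times (-0.84 at 48 h). At 72 h 3 were lower (18.8% against 13.6% of all genes) and 3 higher (18.8% against 22.1%). Those lower were HBZ (-0.90), KLF1 (-0.50) and AHSP (-0.22), and those higher were RHAG (0.62), TFRC (0.62) and EPOR (0.54). Of 15 megakaryocyte markers 3 (20%) were higher at 48 h against 23.3% of all genes, and none was lower against 14.6%. Their ratios ran from -0.17 to 0.51 (GP9), and NFE2 went from -0.58 at 2 h to 0.47 at 72 h. The part of a shift in lineage or in the mix of cells in the tetraspanin ratios was not tested, and in bulk RNA more cells with a transcript and more transcript per cell cannot be told apart.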

How the data were processed

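The deposited table holds the authors' log ratios of treated over untreated RNA, taken as log2, for 45220 probes on 15 arrays. Per the submitters' processing notes they were made with limma; background correction and normalization are not given in the sources used here, and intensities were not used here, so dim probes stayed in. Replicate 3 was used as deposited. The 31332 probes with 1 gene symbol in the platform annotation were averaged per gene.

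The model, fitted per gene by limma 3.58.1 (lmFit, eBayes; R 4.3.3), held a mean for each of 5 times and a dye term whose sign turned in replicate 3, so the term also absorbs what is peculiar to that thawing. Precision is limited by the number of arrays, with a median SE of 0.0602 over all genes and 0.0641 over tetraspanins. On data simulated for 48 h with 18334 genes and 200 changed, 57% of changes of 0.3, 88.4% of 0.5 and 98.8% of 1 were recovered, and 7.09% of calls were false. In the real data far more genes were called at 48 h, 4264 higher and 2678 lower. The adjusted threshold is then less strict, so these shares need not hold for the real fit.

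Per the labels, a replicate number marks a thawing shared by the 5 times, so the numbers pair the samples. Residuals within replicates 1, 2 and 3 correlated at 0.183, 0.153 and 0.525 when no dye term was fitted and at -0.0573, -0.0526 and -0.243 when it was. The dye term forces the residuals of replicate 3 to cancel over the 5 times in each gene. Its negative value was therefore set by the design and does not show whether pairing by thawing remains. The members and companion lists were chosen with earlier results of these data known. Array values were given for up to 16 members with the largest ratio at a called time and 1 sign on all 3 arrays, and for CD151 and TSPAN3. Up to 4 called members of each companion list were named, and more among the erythroid and the monocyte and granulocyte markers. ADAM10, CD14, MPO, POLR2L, RHAG, TFRC, EPOR, HBZ and AHSP were chosen after their values were seen. Alternatives left out the dye term, arrays or replicates, added the thawing as a block, scaled or weighted arrays, and took the median of probes or each probe. Without replicate 3 no dye term could be fitted, so that fit differs from the main model in this too.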

Additional observations from a re-analysis of the deposited data

Results flagged for a closer look

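The ratio differed between hours (2, 6 and 10 h) and days (48 and 72 h) by the contrast within the fit, at an adjusted p under 0.05, for 13 tetraspanin genes. The difference, days minus hours on the log2 scale, was 1.41 in TSPAN5, 1.02 in CD53, 0.89 in CD82, 0.76 in TSPAN6, 0.52 in TSPAN4, 0.52 in CD9, 0.47 in CD63, 0.47 in TSPAN33, 0.26 in TSPAN15, 0.20 in TSPAN3, 0.20 in TSPAN17, 0.17 in CD81 and -0.21 in TSPAN1. In CD53, TSPAN33 and CD82 the ratio at 6 h was not called (0.14, 0.04 and 0.14), whereas TSPAN5, CD9, TSPAN6, TSPAN4 and TSPAN15 were already called at 6 h. The difference in CD9 was not called when arrays were scaled to a common spread (0.27, adjusted p = 0.0725), and those in CD63 and TSPAN15 were not called without replicate 3 (adjusted p = 0.0782 and 0.108). In CD81, TSPAN1 and TSPAN3 it was lost on leaving out any of the 3 replicates, and in TSPAN17 in 14 of 25 other fits.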

How the results depend on the processing

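In 25 other fits per gene, 45 of 81 calls of tetraspanins were kept under all of them: 6 of 13 at 6 h, 9 of 16 at 10 h, 15 of 23 at 48 h, 9 of 16 at 72 h and 6 of 13 for days minus hours. Leaving out an array or a replicate gave 0 to 1 higher and 0 lower at 2 h, 6 to 11 higher and 1 to 4 lower at 6 h, 7 to 14 and 2 to 5 at 10 h, 14 to 18 and 3 to 5 at 48 h, 10 to 15 and 0 to 3 at 72 h, 7 to 12 and 0 to 1 for days minus hours, and 7 to 14 changing over time. The counts moved by over 1.5 times without replicate 3 (6 higher at 6 h, 7 higher for days minus hours and 7 changing over time), without replicate 1 (7 higher at 10 h) and for the small counts of lower genes. Without the dye term 2 were lower at 10 h, 3 at 48 h and 0 for days minus hours. Beyond the losses given for CD81, TSPAN17, TSPAN3 and CD151, calls were then lost for TSPAN31 at 6 h and 72 h (adjusted p = 0.0742 and 0.146). The same held for TSPAN16 (0.0506) and CD151 (0.248) at 48 h, and for days minus hours in CD81, TSPAN1, TSPAN3 and TSPAN17. With arrays scaled, 4 were higher at 2 h, 2 lower at 72 h and 0 lower for days minus hours; scaling also moved all genes higher at 2 h from 884 to 2553 and all genes lower at 2 h from 281 to 1322. Array weights gave 4 higher at 2 h, and probes fitted 1 by 1 gave 1. TSPAN5 and CD9 were called at 2 h with weights (0.33 each, adjusted p = 0.00533 and 0.00536) and with scaling (0.55 each, adjusted p = 0.0163 and 0.00321). CD151 at 6 h reversed to -0.35 without replicate 3, where it was called (adjusted p = 0.0256). Of 2887 uncalled values compared, 155 had the opposite sign. Of 1500 companion list counts recomputed, 134 moved by over 1.5 times. The causes were not tested. Fits that leave arrays out hold fewer arrays. The fit without replicate 3 also holds no dye term, so its changes mix the loss of that replicate with the loss of the dye term. With the thawing as a fixed block, 2 were lower at 72 h, and calls changed for CD37, CD63, TSPAN31, ROM1, TSPAN9 and TSPAN17 as given in the report; it changed no other call of a tetraspanin gene. Signal over background was not used here, so ratios near 0 cannot be split into steady and undetected transcripts.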

Other observations

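A list of 33 genes was picked from other families of proteins that cross the membrane as often as tetraspanins do. These were TM4SF, MS4A, claudins, EMP, CMTM, MAL and synaptogyrins, and the list does not hold any family as a whole by design. Of 31 measured genes 7 (22.6%) were higher at 48 h and 7 at 72 h, shares near those of all genes (23.3% and 22.1%). At 48 h 3 (9.68%) were lower against 14.6% of all genes, and at 72 h 2 (6.45%) against 13.6%. The median was -0.01 at 48 h. EMP2, an epithelial membrane protein that associates with integrins, was called at all 5 times and rose from 0.29 ± 0.04 at 2 h to 1.74 at 48 h and 1.74 at 72 h. CMTM8 rose to 1.65 ± 0.11, CMTM6, a stabiliser of PD-L1 at the cell surface, to 1.11 ± 0.08 and CMTM7 to 0.93 ± 0.08 at 48 h. IGSF8, a direct partner of CD9 and CD81, was higher from 6 h (0.65 ± 0.10) to 72 h (0.53), while PTGFRN, another direct partner of both, read -0.04 at 6 h and -0.05 at 72 h and was not called. IGSF8 and PTGFRN were chosen after their values were seen.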
